A study of Drosophila melanogaster with 4 samples.

Results

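The broad autosomal H3K36me1 domains are the enriched regions of 10 kb or more on arms 2L, 2R, 3L and 3R. H3K36me1 is histone H3 carrying a single methyl group on lysine 36. The domains were chosen by their length in replicate 1 and by an overlap of at least 1 bp with any region of replicate 2. Of 5434 regions in replicate 1, 4262 lay on these 4 arms, and 354 of those were domains. The overlap removed none of them, since all 354 autosomal regions of this length were met by replicate 2. Across the autosomal regions of every length, 68.3% were met in this way. Both length and overlap chose the domains, so neither is a finding here.

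The lists come from embryos of Drosophila melanogaster, strain Oregon-R and wild type in genotype, collected at 14 to 16 hours, in which 2 immunoprecipitated replicates were each set against an input sample of sheared chromatin sequenced without antibody. The 2 input samples entered only through these region lists. Chromatin was crosslinked with formaldehyde from whole embryos, so a lower score from fewer cells with the mark and from less mark per cell cannot be told apart. Nothing in the labels ties the replicates to separate collections of embryos, so their difference may be technical. Each region has a position on FlyBase release 5 and a score from the authors on a scale that no source names. The lists carry no read counts, so the depth behind a domain is unknown. With 2 replicates of 1 condition no exact test over samples can reach 0.05, and the values below are descriptions.

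Lysine 36 of histone H3 can carry a single methyl group or more, and different enzymes place them. In flies Set2 places the trimethyl form over the bodies of transcribed genes, while the trithorax-group protein Ash1 and the NSD-family enzyme Mes-4 act on the lower forms. Ash1 is known for keeping developmental genes active against Polycomb repression. Histone marks can be laid down in narrow peaks, as at promoters, or in broad domains that run over many nucleosomes. Gene positions were at hand for release 6 alone, which differs from the release of the lists, and no gene is assigned to a domain.

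The domains were few and held a large part of the marked sequence. They made up 8.31% of the autosomal regions of replicate 1 and 39.4% of their summed length. Together they spanned 7.32 Mb, which is 7.58% of the 4 arms. Most domains were only moderately longer than the limit. The median was 15.2 kb, the 25th percentile 11.7 kb, the 75th percentile 23.2 kb and the 90th percentile 34.4 kb. The tail was long: 107 domains reached 20 kb, 25 reached 40 kb, 13 reached 50 kb and 4 reached 100 kb. The 107 domains of 20 kb or more held 54.3% of the domain sequence, and the 36 longest alone held 28.2%. Just inside the limit lay regions of 10006 bp, 10020 bp and 10110 bp, and just outside it regions of 9927 bp, 9914 bp and 9891 bp. These neighbours of the limit did not separate by score, at 0.95, 1.33 and 1.18 inside and 0.98, 1.95 and 0.83 outside.

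The arms held similar densities of domains. There were 90 on 2L, 73 on 2R, 93 on 3L and 98 on 3R, or 3.91, 3.45, 3.79 and 3.51 per Mb. Domains covered 7.65% of 2L, 6.15% of 2R, 8.22% of 3L and 8.03% of 3R. On 2R the number was the lowest, while the median length, 14471 bp, was slightly above the 14300 bp of 2L. The longest domain of 2R, from 14173651 to 14221846, was 48.2 kb long. The longest was 136.9 kb on 2L, 107.7 kb on 3L and 168.2 kb on 3R. Domains accounted for 33.0% of the marked length on 2R, against 40.3% to 41.9% on the other arms.

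Replicate 2 covered more than 99% of 9 of the 10 longest domains, although their edges did not always match. Both edges lay within 500 bp in 4 of the 10, and an edge lay more than 3000 bp away in another 4. The longest, on 3R from 6331465 to 6499693, was 168.2 kb in replicate 1 and lay in a single region of 170.8 kb in replicate 2. Its left edge lay 3153 bp farther out in replicate 2 and its right edge 574 bp farther in. The second, on 2L from 21773041 to 21909974, was 136.9 kb in replicate 1 and 136.7 kb in replicate 2. Its score was 1.32 in replicate 1 and 1.41 in replicate 2, and by mean rank of score it was the 81st domain.

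The next pair were each cut once in replicate 2. The 134.9 kb domain on 3R from 2738177 to 2873115 consisted there of 2 regions, the longer of 107.7 kb, whose outer edges lay 101 bp and 60 bp inside those of replicate 1. The 107.7 kb domain on 3L from 711666 to 819323 consisted of 2 regions with a break of 33 bp, the longer of 70.7 kb. Its outer edges lay 20 bp and 348 bp farther out. In both cases the cut changed the length of the largest piece and left the extent of the domain almost as it was, with 99.8% and 99.97% of the sequence covered.

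The other 6 of the 10 longest lay on 3R and 3L. The 3R domain from 12490772 to 12583042 was 92.3 kb in replicate 1 and 100.98 kb in replicate 2, where its left edge lay 8684 bp farther out and its right edge 22 bp farther out. The 3L domain from 11360307 to 11442867 was 82.6 kb and 82.7 kb. The 3R domain from 15119602 to 15188889 was 69.3 kb in replicate 1 and 3 regions in replicate 2, the longest of 66.7 kb. This domain had the lowest covered share of the 10, at 92.6%. The 3R domain from 25078308 to 25139782 was 61.5 kb and 61.2 kb, and it had the highest score of the 10, at 2.16 in replicate 1 and 2.10 in replicate 2. It also stood well apart, with no region within 21.1 kb on its left and 144.0 kb on its right in replicate 1. The 3L domains from 13058631 to 13117912 and from 22343844 to 22401229 were 59.3 kb and 57.4 kb long. The domain at 13058631 had the lowest score of the 10, at 1.10 in replicate 1 and 1.06 in replicate 2.

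Over all domains, replicate 2 covered 96.0% of the sequence. The lowest share for a single domain was 50.3%, the median was 97.8%, and 39 domains were covered in full. A share of 90% or more was reached by 296 domains, or 83.6%. The background over the 2913 matched autosomal regions was 49%. For mid-length autosomal regions, those of 5 to 10 kb that overlapped replicate 2, it was 56.5% of 483. The X domains of 10 kb or more were close to the autosomal ones, with 61 of 77 (79.2%) covered to this extent and 95.3% of their sequence covered in all. The same offset in bp is a larger share of a shorter region, so offsets are also given in bp. The domain covered least lay on 3R from 24680723 to 24691127 and was 10.4 kb in replicate 1 and 5.23 kb in replicate 2. Next came a 13.3 kb domain on 3L from 15179786 to 15193050, covered to 52.1%, with the lowest score of all domains in replicate 1, 0.62.

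Of the domain sequence missing from replicate 2, 193.7 kb lay at the edges and 101.3 kb in breaks inside domains. Replicate 2 met 223 domains (63.0%) with 1 region, 87 with 2, 37 with 3, 5 with 4 and 2 with 5. The background of matched autosomal regions met by 1 region was 87.1%, and most of those regions were short. In the 131 domains met by more than 1 region, the widest break was 455 bp in the median and 3510 bp at most. It was over 1000 bp in 28 domains. The widest break of all lay in a 12.6 kb domain on 3L from 16746500 to 16759109.

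Pairing was less simple than these counts, since replicate 2 regions also reached into neighbours. A single partner on both sides was found for 175 domains (49.4%). A further 83 were only split, 48 were only joined to a neighbouring replicate 1 region, and 48 were both. Scores differed between these kinds by value in both lists. The median score of domains with a single partner was 1.26 in replicate 2 and 1.22 in replicate 1. It was 1.02 and 0.98 for split domains, and 0.99 and 0.96 for those both split and joined. Joined domains had 1.10 and 1.07. These kinds were read from the replicate lists themselves, so the scores are not independent of them.

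**Figure D1:**
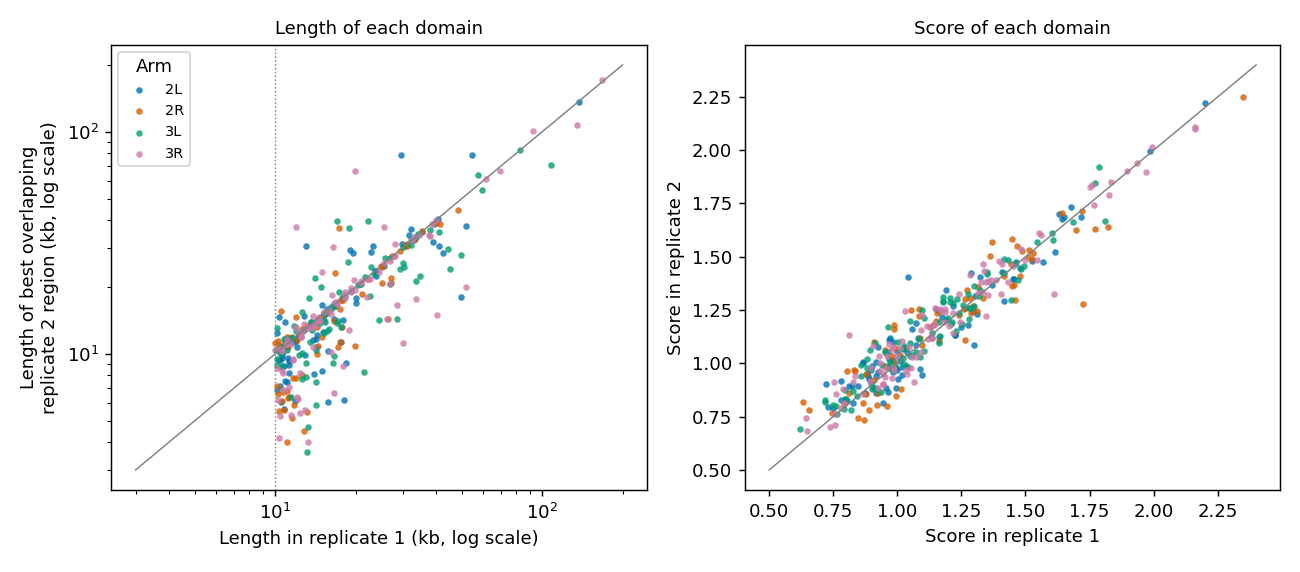
Each point is 1 of the 354 domains, coloured by arm. Left, length in replicate 1 against the length of the best overlapping replicate 2 region, both in kb on log scales, with the dotted line at the limit of 10 kb; right, score in replicate 1 against length-weighted score in replicate 2. Grey lines mark equal values. By construction, points below the line on the left are domains met by more than 1 replicate 2 region or cut short at an edge.

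The plot of length and score shows a dense line of near-equal lengths with a spread of points below it. The best overlapping region of replicate 2 had a median length of 14.0 kb and was longer than the domain in 103 cases and shorter in 251. Its length was 97.3% of that of the domain in the median, with an interquartile range of 76.8% to 100.6%. In 75 domains the best region of replicate 2 was under 10 kb, and in 6 of them under 5 kb, the shortest being 3.60 kb. Domains had to reach 10 kb in replicate 1 alone, so a shorter partner is what the choice favours. Taken from the other list, 317 autosomal regions of replicate 2 reached 10 kb, and 295 of them overlapped a domain. The other 22 had a median length of 11.2 kb in replicate 2. Each was met by more than 1 region in replicate 1, the best of which was between 4684 bp and 9622 bp long. None of these replicate 1 regions reached the limit alone, and their joint length was not taken.

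The edges of the domains lay close together in the replicates. An edge is the end of a region as called, and the offset is the distance to the outermost replicate 2 edge of the regions that meet the domain. Over 708 edges the median absolute offset was 228.5 bp, with an interquartile range of 89 to 696.75 bp. An offset of at most 100 bp was found at 200 edges (28.2%), of at most 200 bp at 327 (46.2%), of at most 500 bp at 481 (67.9%) and of at most 2000 bp at 614 (86.7%). The background within 500 bp was 66% of the edges of all matched autosomal regions, so the domains' share was near it. Both edges lay within 500 bp in 166 domains (46.9%), against a background of 48.1%. The median offset was 311 bp for mid-length regions, 284.5 bp for regions under 5 kb and 376.5 bp for the 77 X domains of the same lengths. Edges of domains were thus about as close, in bp, as those of far shorter regions.

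Left and right edges did not differ much, with median absolute offsets of 234 bp and 226.5 bp. By arm the median was 191.5 bp on 3R, 216 bp on 2R, 256 bp on 2L and 313 bp on 3L. The share within 500 bp was highest on 3R, at 74.5%, and lowest on 2L, at 62.8%. In the 175 domains with a single partner, the median was 152 bp, and 80.3% of 350 edges lay within 500 bp. The largest offset among these was 4016 bp.

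**Figure D2:**
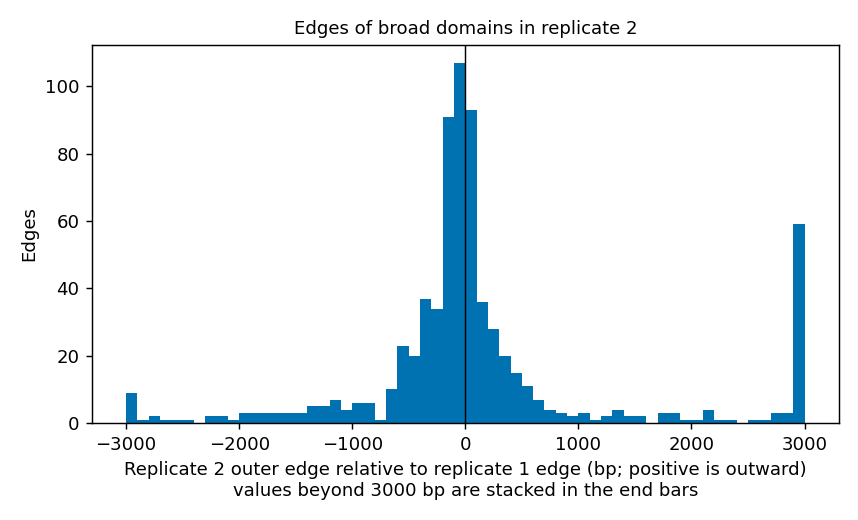
Number of domain edges (708 in all) by the position of the replicate 2 edge relative to the replicate 1 edge, in bp, in steps of 100 bp, with outward positive and values past 3000 bp stacked in the end bars. The edges gather around 0, with 46.2% within 200 bp, and the outward end bar is far taller than the inward one.

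Large offsets ran mostly outward and small ones slightly inward. Replicate 2 lay farther in at 394 edges, farther out at 311 and at the same base at 3, with a median of -38.5 bp. Offsets of more than 5000 bp were outward at 43 edges and inward at none. Mid-length regions had 46 outward and 1 inward, short ones 93 and 0, and the X domains 11 and 0. An inward offset cannot exceed the length of the region, while an outward one has no such bound. All 43 outward offsets of the domains belonged to domains that a replicate 2 region joined to a neighbour. The median space to the next replicate 1 region was 1839 bp, so a reach of this length would often meet one in any case. The largest outward offset was 57705 bp, at the left of a 19.9 kb domain on 3R from 15189243 to 15209118. That domain lay 353 bp from the 69.3 kb one at 15119602, and a 66.7 kb region of replicate 2 ran across the space between them. On 2L, domains from 1392401 to 1446782 and from 1446960 to 1476575 lay 177 bp apart and shared a replicate 2 region of 78.3 kb. Measured from the 317 long regions of replicate 2, the edges of replicate 1 lay outward at 434 of 634 and inward at 196, with a median of 130 bp and a median absolute offset of 254 bp. Replicate 1 therefore extended slightly farther on both readings.

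The list called for the set of replicates enclosed the domains. A single region of that list met 350 of the 354 domains and 2 regions met the others. It covered 99.96% of the domain sequence, never less than 93.5% of a domain. Its edges lay outside those of replicate 1 at 644 of 708 edges and inside at 63, with a median of 191 bp outward. Some extensions were long. The 82.6 kb 3L domain at 11360307 began 35262 bp earlier in the set list, and the 69.3 kb 3R domain at 15119602 ended 29031 bp later. That list was made from the same replicates and is no independent check of them.

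Scores ranked the domains in nearly the same order in both replicates. The Spearman correlation across the 354 domains was 0.941, against 0.921 for the 77 X domains, 0.822 for mid-length regions and 0.523 for short ones. Regions of 1 pair of samples share libraries and inputs, so no p-value is attached. The 10 domains with the highest score in replicate 1 and the 10 with the highest score in replicate 2 had 9 in common. The highest 35 of each had 31 in common and the lowest 35 had 25, so the order was less alike at the low end. The score of a domain in replicate 2 is the mean of its regions there, weighted by overlap. Levels were compared within a list only, since the lists may be on different scales.

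The median domain scored 1.12 in replicate 2, from 0.68 to 2.25, and 1.09 in replicate 1, from 0.62 to 2.35. Mid-length regions had medians of 0.89 and 0.86, and short ones 0.67 and 0.60. In replicate 2, whose scores did not choose the domains, 299 of them (84.5%) lay above the median of the mid-length regions. The distributions overlapped, as 68 of 483 mid-length regions (14.1%) lay above the median domain. The X domains had medians of 1.28 and 1.22. Score rose with length within the shorter groups as well. The Spearman correlation of length with score was 0.335 in replicate 2 and 0.308 in replicate 1 for mid-length regions. For short regions it was 0.435 and 0.741. No source says how a score was formed, so whether length enters it was not tested.

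Length ordered the scores of domains only loosely. Within the domains the Spearman correlation of length with score was 0.383 in replicate 2 and 0.364 in replicate 1. Among those under 20 kb it was 0.161 in replicate 2 and 0.162 in replicate 1, and among those of 20 kb or more 0.303 and 0.338. The median score in replicate 2 was 1.27 for the 107 domains of 20 kb or more, 1.12 for 77 of 15 to 20 kb, 0.99 for 73 of 12 to 15 kb and 1.02 for 97 of 10 to 12 kb. Mid-length regions of 7.5 to 10 kb had 0.99 as well, so scores in replicate 2 showed little step at the limit. In replicate 1 the medians were 0.93 for 7.5 to 10 kb, 1.01 for 10 to 12 kb and 0.99 for 12 to 15 kb, a small rise at the limit. Only 1 domain was among both the 10 longest and the 10 of highest mean rank of score, the 61.5 kb domain on 3R at 25078308.

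The 10 domains of highest mean rank of score were between 10.5 and 61.5 kb long, and none of their edges moved by more than 431 bp between the replicates. The first, on 2R from 15141791 to 15166751, was 24.96 kb long and scored 2.35 in replicate 1 and 2.25 in replicate 2. Its edges were 61 bp farther out and 158 bp farther in. The second, on 2L from 161704 to 185594, was 23.9 kb long and scored 2.20 and 2.22. An 18.2 kb domain on 3R from 27521073 to 27539262 followed with 2.16 and 2.11. All 10 had a single partner in replicate 2 and were covered to at least 98.6%. The shortest of them, on 3R from 5167952 to 5178491, was 10.5 kb in each replicate and scored 1.90 in both.

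A group of the highest scorers lay together near the start of 3R. The domains from 796540 to 828982, from 834014 to 872565, from 877703 to 894695 and from 913251 to 953227 scored 1.93, 1.83, 1.97 and 1.99 in replicate 1. Their scores in replicate 2 were 1.94, 1.85, 1.90 and 2.01. Their lengths in replicate 2 were 32.5, 38.4, 17.0 and 40.0 kb, and in replicate 1 they were 32.4, 38.6, 17.0 and 40.0 kb. The largest offset among the edges of these 4 domains was 93 bp.

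The scores of 6 domains with the largest differences between the lists were examined (chosen after their values were seen, and by a difference that assumes a like scale in both lists). In replicate 2, 4 of them were joined to a neighbour and 2 were not. Of all 354 domains, 96 were joined, and whether joining goes with a score difference was not tested. A 17.4 kb domain on 2R from 2450845 to 2468243 scored 1.72 in replicate 1 and 1.28 in replicate 2, where it was part of a 36.8 kb region. The 29.6 kb domain on 2L at 1446960 scored 1.04 and 1.41, and the 19.9 kb domain on 3R at 15189243 scored 0.81 and 1.13. These 3 and a 13042 bp domain on 2L from 4067956 to 4080997, at 1.30 and 1.09, were the joined ones. A 10.6 kb domain on 3R from 12075793 to 12086405 scored 1.61 and 1.33 without such a join. A 10.4 kb domain on 3R from 18452689 to 18463104, with a single partner, scored 1.03 and 1.25. Just below these 6, a 15.4 kb domain on 3L from 10754662 to 10770035, also with a single partner, scored 0.96 and 1.17. It was the last of 7 domains whose scores differed by more than 0.2.

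Consecutive domains stood at very different distances from each other. Over 350 pairs of neighbours on an arm, the median distance from end to start was 118.3 kb, with an interquartile range of 15.8 to 316.2 kb. It was under 10 kb in 73 pairs (20.9%), under 5 kb in 57 and under 1 kb in 27. It was over 500 kb in 57 pairs. The shortest distance was 36 bp, on 2R between 15926578 and 15926615, between domains of 11.1 and 17.2 kb. A replicate 2 region crossed that space, though replicate 2 met the first domain with 2 regions and the second with 3. The longest was 2096 kb, on 3R from 7445653 to 9541479, where 73 shorter regions of replicate 1 lay between.

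**Figure D3:**
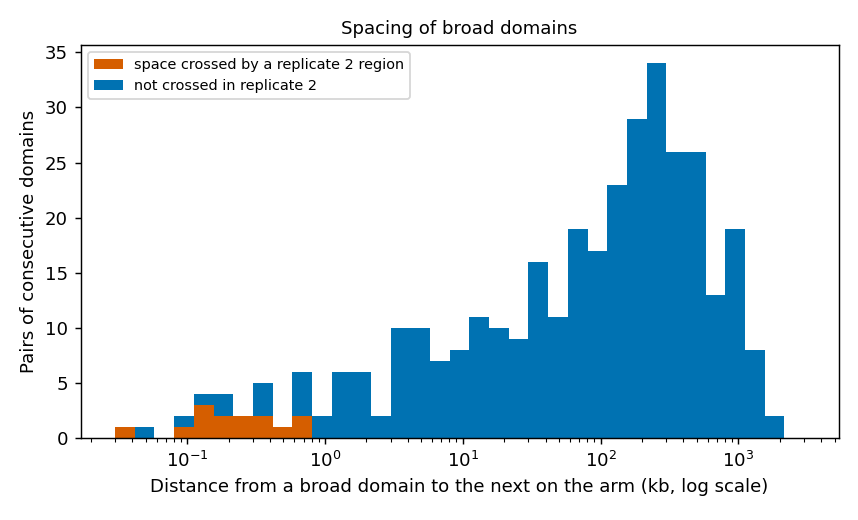
Number of pairs of consecutive domains by the distance between them in kb on a log scale, with pairs whose space is crossed by a replicate 2 region in orange and the others in blue. All 14 crossed spaces lie under 1 kb, and the widest part of the distribution lies above 100 kb.

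Some of the narrow spaces were not repeated. Of the 27 spaces under 1 kb, 14 were crossed by a region of replicate 2 and 18 by one of the set list. No wider space was crossed in replicate 2. Of the 73 spaces under 10 kb, 27 were crossed in the set list. A region that crosses a space need not contain both domains.

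Domains less than 10 kb apart formed 49 runs, which held 122 domains (34.5%). There were 33 runs of 2 and 16 of 3 or more. The longest, with 5 domains, lay on 3L from 11224264 to 11442867, and 94.0% of its 218.6 kb was domain sequence. A further pair of runs also had 5 domains. One lay on 3R from 796540 to 953227, spanned 156.7 kb and held the 4 high-scoring domains given above. The other lay on 3R from 12635692 to 12724999 and spanned 89.3 kb, of which 95.1% was domain sequence. Domains in runs had a median length of 16.9 kb and a median score of 1.15 in replicate 2, against 14.4 kb and 1.12 for the 232 others.

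The scores of close neighbours were more correlated than those of distant ones by value. Over the 59 pairs less than 10 kb apart that replicate 2 did not join, the Spearman correlation of the scores of the first and second domain was 0.556 in replicate 2 and 0.554 in replicate 1. Over 92 pairs at 10 to 100 kb it was 0.135 and 0.103, and over 185 pairs at 100 kb or more it was -0.02 and -0.09. In the same order of distance, the median absolute difference in score was 0.19, 0.27 and 0.22 in replicate 2. In replicate 1 it was 0.19, 0.26 and 0.26. The difference was thus smallest for close pairs but did not rise steadily with distance. The pairs share libraries, and a domain can be in 2 pairs, so this is a description of the lists.

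Domains had near neighbours of other lengths as well. The median space from a domain to the next region of replicate 1 was 1839 bp over 707 sides, against 2152.5 bp for mid-length regions and 3924.5 bp for all autosomal regions. With regions less than 1000 bp apart merged it was 4950 bp, against 5018.5 bp and 6177 bp, and in the higher-scoring 50% of regions it was 4946 bp, against 7118 bp and 9845 bp. A neighbour less than 1000 bp away on at least 1 side was found for 212 domains (59.9%), against a background of 36.8%. For mid-length regions the share was 56.1%, close to that of the domains. A further 51 domains had such a neighbour on both sides, counted among the 212. More than 20 kb was free on both sides of 11 of 354 domains. The same held for 10 of 483 mid-length regions and 180 of all 4262 autosomal regions, so such isolation was uncommon in each group. The most isolated, on 2L from 4208471 to 4222718, was 14.2 kb long, with 84.9 kb free on its left and 60.8 kb on its right. It was 11.6 kb in replicate 2.

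The flanking regions were longer than an average region. Of the 707 neighbours, 118 (16.7%) were themselves 10 kb or more, 135 (19.1%) were mid-length and 454 (64.2%) were short. Among all autosomal regions of replicate 1 these classes made up 8.31%, 11.4% and 80.3%. All neighbours of 5 kb or more were matched in replicate 2, and 66.3% of the short ones were. Over all autosomal regions, wherever they lay, 483 of 484 mid-length and 2076 of 3424 short ones were matched, so these shares were near the background. Short regions less than 1 kb from a domain were matched in replicate 2 in 107 of 130 cases (82.3%). The share was 67.7% of 161 at 1 to 5 kb, 60.5% of 474 at 5 to 20 kb and 60.9% of 1528 at 100 kb or more. Counting only replicate 2 regions that met no domain, it was 55.4% under 1 kb and 64.6% at 1 to 5 kb, so the higher share nearest the domains came through replicate 2 regions that ran on from them.

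**Figure D4:**
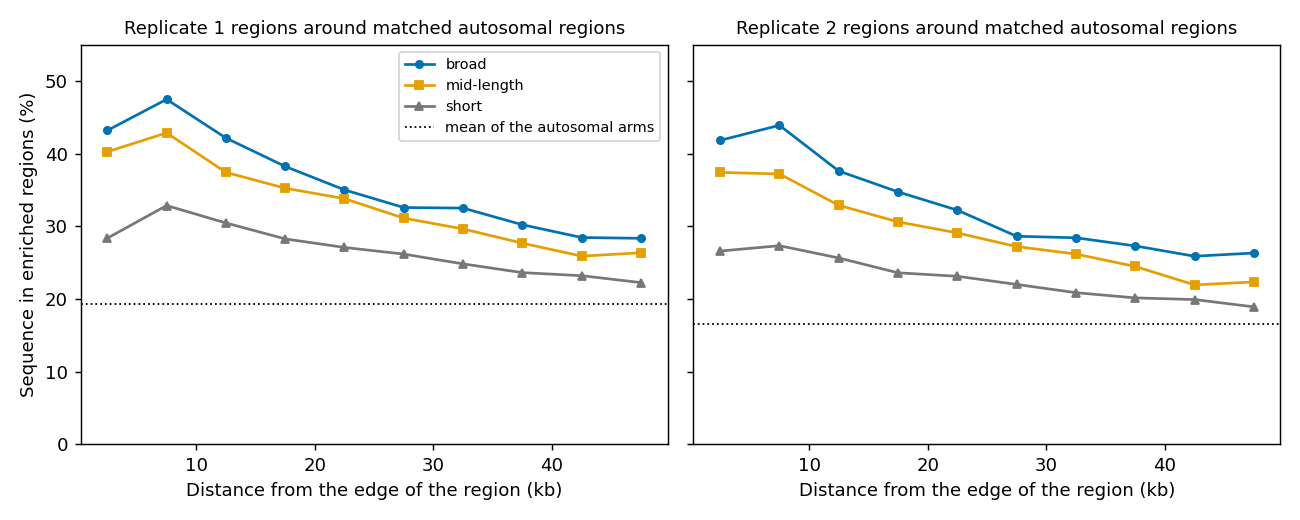
Percent of sequence in enriched regions of replicate 1 (left) and replicate 2 (right) in steps of 5 kb from the edges of broad domains, mid-length regions and short regions matched in replicate 2; dotted lines mark the mean of the 4 arms. Around broad domains the share in replicate 2 is 41.8% in the first step and 26.3% in the last, above the dotted line at 16.5% throughout.

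Out to 50 kb around the domains, marked sequence was denser by value than the mean of the arms. In replicate 2, which did not set the replicate 1 edges, regions covered 41.8% of the first 5 kb beyond the domains, 43.9% of the next 5 kb, 32.2% at 20 to 25 kb and 26.3% at 45 to 50 kb. The mean of the arms was 16.5%. With regions less than 1000 bp apart merged, the first 5 kb beyond the domains were covered to 25.1% and the first 5 kb beyond mid-length regions to 21.3%, with a mean of 16.9%. Around mid-length regions the same steps were covered to 37.4%, 37.2%, 29.1% and 22.3%, values not far below those around the domains. Neighbouring domains are counted in these shares. Replicate 2 regions that met no domain covered 21.7% of the first step and 13.3% of the last, with a mean of 8.87% over the arms. Around mid-length regions these covered 27.2% and 11.2%, and around short regions 22.4% and 10.3%. A first step above the mean was thus not particular to the domains.

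Close to the edge the coverage had a dip. In replicate 2 the share of edges with marked sequence was 84.7% at 500 bp inside the domain and 52.1% at 50 bp inside. It was 37.3% at 50 bp outside, 28.0% at 300 bp outside and 28.1% at 500 bp outside. Farther out it was higher again, at 34.9% at 1000 bp and 47.3% at 3000 bp. Mid-length regions had a like dip, as replicate 2 covered 28.5% of the step from 500 to 1000 bp outside them and 41.3% at 2500 to 3000 bp, against 30.7% and 48.4% for the domains. At each of these distances outside, fewer edges were marked than unmarked. At none of the distances taken outside, from 50 to 5000 bp, was the share as low as the mean of the arms, 16.5%. In replicate 1 the sequence next to an edge is unmarked by definition, and its share was 12.3% in the first 500 bp and 51.2% at 2500 to 3000 bp.

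**Figure D5:**
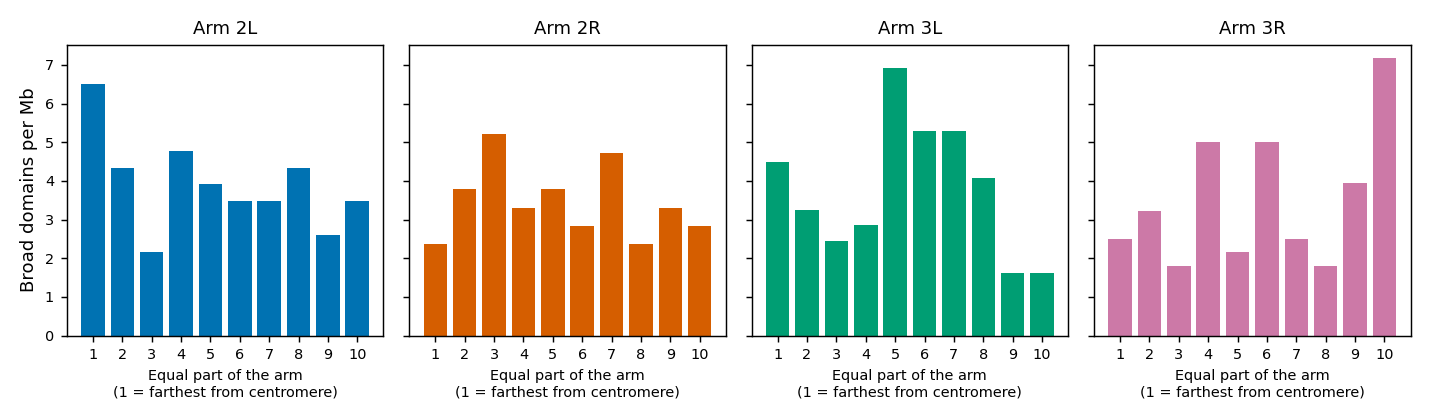
Broad domains per Mb in 10 equal parts of each arm, with the part farthest from the centromere at 1 and the nearest at 10. The highest bar is the part of 3R nearest the centromere, with 20 domains, and the lowest are parts 9 and 10 of 3L, with 4 each.

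Domains were found in each of 10 equal parts of every arm, with local peaks that differed between arms. The ends of 2R and 3L nearest the centromere held none over 1.60 Mb each. Summed over the arms, the parts held between 27 and 41 domains, with 38 in the part nearest the centromere and 38 in the one farthest from it. On 3R the part nearest the centromere held 20 domains, at 7.17 per Mb, while on 3L the same part held 4. On 2L the highest count, 15, was in the part farthest from the centromere, and on 3L it was 17, in part 5. In 95 full windows of 1 Mb the median was 3 domains, and 5 windows had none. The most, 13, were on 3R from 1 to 1000000, followed by 11 on 3R from 12000001 to 13000000 and 10 on 3L from 15000001 to 16000000. In those windows 25.9%, 26.3% and 19.1% of the sequence was in domains. The windows with none were on 2L from 10000001, on 2R from 1 and from 3000001, on 3R from 8000001 and on 3L from 23000001.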

How the data were processed

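Chromatin was immunoprecipitated for H3K36me1 and sequenced in 2 replicates, each with an input sample. The submitters' processing notes name Bowtie 0.12.7. The deposited lists give regions of significant enrichment on FlyBase release 5, per the file headers, called for each replicate over its own input per the labels, and once for the set of replicates. The value the authors deposited for each region is a score. For the caller, its threshold and the scale of the score, the sources used here name nothing. Depth is unknown, so no counting interval is given.

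Positions count from 1, both ends included. The members and lists were chosen with earlier results of these data known. Named domains are the 10 longest, the 10 of highest mean rank of score, the longest of each arm, those with the largest offset, lowest coverage or closest neighbour, the longest run, and regions beside the limit; the most isolated domain, the widest break and the score changes were added after values were seen. No test was run. Coverage steps were 5 kb out to 50 kb. The code was tested on simulated data. Python 3.11.15, NumPy 2.4.6, pandas 2.3.3 and matplotlib 3.10.9 were used.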

Additional observations from a re-analysis of the deposited data

How the results depend on the processing

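Each of 10 values was taken again under other settings. None changed sign. Values are given where they moved by more than the SD between domains chosen in replicate 1 and in replicate 2 (counts: by more than 1.5 times). Domains chosen in replicate 2 lie outside that SD by construction, and leaving out replicate 2 changed nothing by construction. The cause was not tested except where the setting itself fixes it.

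With regions less than 1000 bp apart merged, the median length was 17204 bp, 10.5% of the arms lay in domains, replicate 2 covered 92.9%, the median offset was 328.5 bp with 59.4% of edges within 500 bp, the space to the next region was 4950 bp, the first 5 kb outside were covered to 25.1%, and the score difference from mid-length regions was 0.24. Merging removes narrow spaces by construction. Keeping only the higher-scoring 50% of regions, the offset was 252 bp with 65.3% within 500 bp, the space 4946 bp, the flank 34.0%, the score difference 0.20 and the rank correlation 0.931.

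With domains chosen in replicate 2 the median length was 14979 bp, 6.78% of the arms lay in domains, replicate 1 covered 98.4%, the offset was 254 bp with 64.8% within 500 bp, the space 2081 bp, the flank 50.4%, the score difference 0.24 and the rank correlation 0.932. With the set list in place of replicate 2 the coverage was 99.96%, the offset 192 bp with 63.1% within 500 bp, the flank 59.0% and the score difference 0.22.

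A limit of 15 kb left 184 domains with a median of 22712 bp over 5.47% of the arms, 70.7% of edges within 500 bp, a score difference of 0.34 and a rank correlation of 0.950. A limit of 8 kb gave a median of 12412 bp, 8.86% of the arms and a rank correlation of 0.910. A reciprocal overlap of 50% gave 6.93% of the arms and a score difference of 0.25. Without the 10% of each arm nearest the centromere the rank correlation was 0.935. Leaving out a replicate gave 317 to 354 domains, medians of 14979 to 15208.5 bp, and 6.78% to 7.58% of the arms. No paired analysis was possible because only the immunoprecipitated samples have region lists. How far depth, which is unknown, sets edges, breaks and narrow spaces was not tested.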
